A study of Homo sapiens with 12 samples.

Results

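Bone morphogenetic protein (BMP) signalling was followed through 10 genes in PC9 cells, a human lung adenocarcinoma line that carries an activating EGFR mutation and responds to the EGFR inhibitor erlotinib. The 10 genes were chosen by name, with earlier results of these data known. These were the ligands BMP2, BMP4 and BMP7, the receptors BMPR1A and BMPR2, the inhibitory SMAD6, and the 4 ID genes ID1, ID2, ID3 and ID4. They are 10 of the 62754 genes in the deposited count table. All 10 passed the filter on low counts, some of them only through 1 group, as given below. Cells with wild-type TDP1 (WT) formed 3 groups: an untreated one, one kept for 7 days in erlotinib at 1 µM (called drug-tolerant cells, DTC), and one kept in that dose for 28 days (called drug-tolerant expanded cells, DTEC). The fourth group was untreated TDP1 knockout cells of 1 line, KO2 (KO below). TDP1 encodes an enzyme that removes trapped topoisomerase from DNA ends. All 4 groups came from a PC9 subclonal line and were assigned to 1 batch, and each group held 3 cultures that were split from one starting flask and then grown separately. The p-values below therefore measure the spread between sister cultures of 1 subclone. The labels give no time in culture for the untreated groups, so drug and culture time cannot be told apart.

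BMP ligands are secreted dimers that bring together type I receptors such as BMPR1A and the type II receptor BMPR2. The active receptor phosphorylates SMAD1, SMAD5 and SMAD9, which enter the nucleus with SMAD4 and switch on target genes, among them the ID genes and the inhibitor SMAD6, which feeds back on the receptors. ID proteins have a helix-loop-helix domain but cannot bind DNA, and they hold E proteins such as TCF3 away from their sites, which in many epithelia keeps cells from differentiating.

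Libraries held 25572691 to 38373679 estimated counts. Values are given as CPM, the usual depth-scaled read count of a gene, with library totals corrected by TMM scaling for differences in RNA composition, and 3 counts corresponded to 0.0824 to 0.115 CPM. Epithelial markers were present in all libraries. Their sum over 5 genes was 8862 to 9330 CPM in untreated WT and 4465 to 5022 CPM in DTC. It was 7480 to 9812 CPM in DTEC and 9542 to 10260 CPM in KO. KRT8 and KRT18 made up most of it. In DTC 4 of the 5 were called lower. The other, CDH1, was not called, at 392, 227 and 274 CPM in DTC and 278, 289 and 289 CPM in untreated WT. Lung-lineage markers were scarce, with a sum over 4 genes of 1.21 to 2.33 CPM in untreated WT and 1.39 to 2.55 CPM in DTC. The lung-lineage sum was 12.3 to 17.5 CPM in DTEC and 5.51 to 7.54 CPM in KO. The lineage factor NKX2-1 had 2, 1 and 0 counts in untreated WT and 9, 15 and 12 in DTC, NAPSA had 5, 6 and 1 in untreated WT and 31, 63 and 67 in DTC, and SFTPC was at the counting floor. Both NKX2-1 and NAPSA were called higher in DTC, though NKX2-1 passed the filter on low counts only through the DTC libraries. SFTPB, of the same list, was called lower there, with 41.6, 62 and 41 counts in untreated WT and 1.03, 1 and 4.92 in DTC. In DTEC SFTPB had 563, 354 and 424 counts. COL1A1 was the only 1 of 5 listed fibroblast markers that passed the filter, and its list summed to 7.99 to 8.91 CPM in untreated WT and 54.9 to 57.6 CPM in DTC, with COL1A2 and DCN at the counting floor. LUM, another of the 5, had 0 counts in every untreated WT, DTEC and KO library and 6, 18 and 19 counts in DTC. Mitochondrial genes took 5.02% ± 0.519 (SD, n = 3) of the counts in DTC and 2.60% ± 0.147 in untreated WT. The part of these differences in the results below was not tested. TDP1 itself was at 26.3 CPM in untreated WT and 10.8 CPM in KO (log2 fold change -1.29, edgeR adjusted p = 1.30e-05). It was also called lower in DTC (log2 fold change -0.92), at 15.7, 12.7 and 13.5 CPM, and was at 28.4, 25.4 and 26.1 CPM in DTEC.

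One library stood apart before any gene was considered. DTC replicate 1 lay at a root-mean-square log2 distance of 0.656 from the other libraries of its group, against 0.488 to 0.571 for the other 11 libraries. Its ID1 level was 0.356 times the mean of the other DTC libraries, a distance reached by 2.47% of the tested genes. Its SMAD6 and ID3 levels were 0.529 and 0.542 times that mean, and its BMPR2 level was 1.68 times that mean. The changes of these genes in DTC are given with and without this library.

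Windows of 250 bases upstream of the RefSeq start (GRCh38.p14) were read for 8 of the 10 genes. GENCODE 29 has longer transcripts of some of them, so that 250 bases of the ID3 window and 202 bases of the ID2 window lie in annotated exons of the same gene, against 6 in ID1, 8 in SMAD6 and 0 in ID4. Shown are ID1 (chr20:31605039-31605288, plus strand) and SMAD6 (chr15:66701986-66702235, plus strand), both lower in DTC, and ID4 (chr6:19837120-19837369, plus strand), higher in DTC. Capitals mark GTCT, the core letters that SMAD proteins bind, or its reverse complement AGAC.
ID1: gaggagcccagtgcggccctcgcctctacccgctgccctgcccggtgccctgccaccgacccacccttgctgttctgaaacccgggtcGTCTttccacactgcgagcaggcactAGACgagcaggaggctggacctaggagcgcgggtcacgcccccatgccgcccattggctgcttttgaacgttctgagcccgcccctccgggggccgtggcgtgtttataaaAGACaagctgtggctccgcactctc
SMAD6: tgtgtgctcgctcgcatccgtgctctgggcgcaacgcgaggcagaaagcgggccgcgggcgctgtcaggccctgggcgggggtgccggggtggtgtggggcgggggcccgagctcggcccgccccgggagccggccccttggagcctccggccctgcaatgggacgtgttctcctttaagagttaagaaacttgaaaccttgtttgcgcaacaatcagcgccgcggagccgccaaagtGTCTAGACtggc
ID4: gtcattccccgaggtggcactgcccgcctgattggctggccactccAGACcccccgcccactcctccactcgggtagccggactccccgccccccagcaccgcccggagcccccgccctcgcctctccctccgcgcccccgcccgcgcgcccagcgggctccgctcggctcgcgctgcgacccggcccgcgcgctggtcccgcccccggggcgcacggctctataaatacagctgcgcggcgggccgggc

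The searched letters were GTCT, the GC-rich SMAD element GGCGCC and the E-box CANNTG, each on both strands. The ID1 window held 3 matches to GTCT, the SMAD6 window 2 and the ID4 window 1. The windows of ID2 and ID3 held 2 each, that of BMPR2 held 4 and that of BMPR1A held 0. At least 1 match to GTCT was found in 77.5% of 35116 promoter windows of the same length, so its presence does not set these genes apart. GGCGCC, present in 16.4% of all windows, was in the BMPR2 window and in the window of 1 of the 3 BMP4 starts. It was in 0 of the windows of the ID genes and SMAD6, but sequence outside the 250 bases was not searched. CANNTG, present in 61.8% of all windows, occurred 1 time each in the ID2 and ID4 windows and 0 times in those of ID1, ID3 and SMAD6. The ID1 and ID4 windows also held TATAAA (2 overlapping matches on opposite strands in ID1, 1 in ID4), which occurred in 10.7% of all windows.

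**Figure D1:**
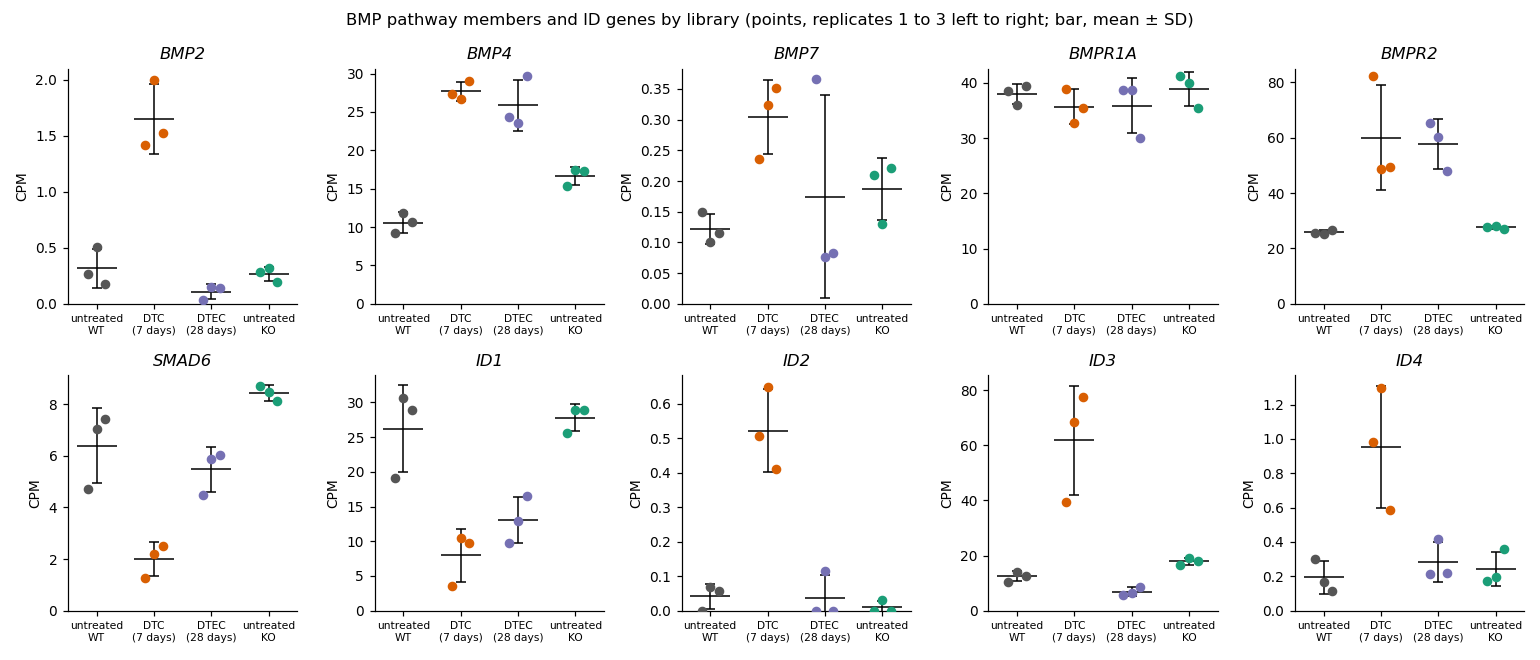
CPM of the 10 genes in each library, 1 panel per gene with its own axis starting at 0; points are replicates 1 to 3 from left to right and bars are the group mean ± SD (n = 3). BMP4 and BMPR2 sat high in both erlotinib groups, whereas BMP2, ID2, ID3 and ID4 were high in DTC alone of the 4 groups, and SMAD6 was lowest there.

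After 7 days of erlotinib, 8 of the 10 genes were called changed against untreated WT, 6 higher (BMP2, BMP4, BMPR2, ID2, ID3 and ID4) and 2 lower (SMAD6 and ID1). The threshold for a call was an adjusted p under 0.05 in edgeR's quasi-likelihood test with Benjamini-Hochberg adjustment over 17115 genes. Of all tested genes 67.3% were called in the same comparison, 34% higher and 33.3% lower. All 8 called genes also differed by at least 2-fold, a mark that 22.3% of tested genes reached upward and 13.9% downward. The libraries of both groups did not overlap for 9 of the 10 genes, as was so for 68.9% of tested genes. The median log2 fold change of the 10 genes was 1.34, beside 0.06 over all tested genes. Because the genes were chosen with earlier results known, these counts and medians are a description only, here and in the other comparisons. Each of the 8 calls was kept in all 14 alternative fits. BMP2, ID2 and ID4 passed the filter on low counts only through the DTC libraries, where they were high. Their place among the tested genes thus depends on the group in which they were called higher.

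The ligand BMP4, at chr14:53949736-53958761 on the minus strand of GRCh38, was the most abundant of the 3 ligands per kilobase of exon in every library. Its level was 9.20, 11.8 and 10.7 CPM in the untreated WT libraries, 27.3, 26.7 and 28.97 CPM in DTC, and 24.4, 23.5 and 29.6 CPM in DTEC. All 6 erlotinib libraries lay above all untreated WT libraries, and the DTC and DTEC ranges overlapped. BMP4 rose 2.62-fold in DTC (log2 fold change 1.39, SE 0.123, adjusted p = 2.04e-07) and 2.44-fold in DTEC (1.29, SE 0.123, adjusted p = 1.19e-06). Between DTC and DTEC its difference was -0.10 (SE 0.119, adjusted p = 0.510), and no change was called. In bulk RNA a shift in the share of cells that express a gene and a shift in RNA per cell cannot be told apart, here and for every gene below.

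BMP2, which signals through the same receptors as BMP4, moved on another course. It lies at chr20:6767664-6780280 on the plus strand. Its level was 0.269, 0.506 and 0.173 CPM in untreated WT, 1.42, 2.00 and 1.52 CPM in DTC, and 0.0305, 0.153 and 0.137 CPM in DTEC. DTC was the highest group and DTEC the lowest, with no overlap among these 3 groups. The rise in DTC was 5.24-fold (2.39, SE 0.453, adjusted p = 0.000314), on 162 counts against 30. From DTC to DTEC BMP2 fell by 3.92 on the log2 scale (SE 0.522, adjusted p = 2.33e-05). Its DTEC level was also below untreated WT (-1.53, SE 0.574, adjusted p = 0.0367), but on 10 counts against 30, and this call was kept in only 7 of 13 alternatives. Without untreated WT replicate 2 the value was -1.03 (adjusted p = 0.185), and without DTEC replicate 1 the adjusted p was 0.140.

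BMP7, a ligand of another BMP subgroup, was close to the detection limit. It lies at chr20:57168748-57266629 on the minus strand and shares that interval with the antisense gene BMP7-AS1, and the strand setting of the counting is not given in the sources used here. Its DTC libraries held 0.237, 0.324 and 0.352 CPM and its untreated WT libraries 0.149, 0.101 and 0.115 CPM. These groups did not overlap, but no call was made (1.29, SE 0.617, adjusted p = 0.0773), although scaling by total counts gave one (1.64, adjusted p = 0.0279). The DTEC libraries held 0.365, 0.0764 and 0.0824 CPM, so that replicate 1 alone stood above untreated WT. Without that library the DTEC against DTC difference went from -0.77 (adjusted p = 0.282) to -1.89 (adjusted p = 0.0277).

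The receptors behaved differently from each other. BMPR2, the type II receptor, lies at chr2:202376936-202567751 on the plus strand. Its level was 25.7, 25.1 and 26.6 CPM in untreated WT, 82.1, 48.5 and 49.5 CPM in DTC, and 65.4, 60.1 and 47.8 CPM in DTEC. Every erlotinib library was above every untreated WT library, and DTC replicate 1 was the highest of all. BMPR2 rose 2.32-fold in DTC (1.22, SE 0.177, adjusted p = 2.96e-05) and 2.24-fold in DTEC (1.16, SE 0.177, adjusted p = 8.59e-05). Without DTC replicate 1 the DTC value was 0.96, and the call remained. DTEC differed from DTC by -0.055 (adjusted p = 0.806), and by 0.22 without that library (adjusted p = 0.0896).

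BMPR1A, the type I receptor at chr10:86756601-86932838 on the plus strand, stayed within a narrow band. The untreated WT libraries ran from 36.0 to 39.5 CPM and the KO libraries from 35.4 to 41.3 CPM. DTC ran from 32.7 to 39.0 CPM and DTEC from 30.1 to 38.7 CPM. The 4 ranges overlapped. Its differences were -0.09 (SE 0.116, adjusted p = 0.499) in DTC and -0.09 (SE 0.116, adjusted p = 0.557) in DTEC, and their sign turned with scaling by total counts or by the upper quartile. A correction for GC content and exon length gave -0.26 in DTEC with an adjusted p of 0.0135. Per kilobase of exon, BMPR1A (3.15 to 3.46 CPM per kb) was above BMPR2 (2.11 to 2.23) in every untreated WT library, and BMPR2 was above BMPR1A in every DTC and DTEC library.

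SMAD6, the inhibitory SMAD and itself a BMP target gene, lies at chr15:66702228-66782848 on the plus strand. Its level was 4.72, 7.05 and 7.41 CPM in untreated WT, 1.25, 2.21 and 2.52 CPM in DTC, and 4.48, 5.88 and 6.05 CPM in DTEC. The DTC libraries lay below all others, and DTEC overlapped untreated WT. SMAD6 fell by 1.67 on the log2 scale in DTC (SE 0.239, adjusted p = 2.39e-05), or 3.18-fold, and was higher again in DTEC than in DTC (1.45, SE 0.239, adjusted p = 0.000158). Without DTC replicate 1 these values were -1.396 and 1.19, and both calls remained. The DTEC difference from untreated WT was -0.23 (SE 0.224, adjusted p = 0.416), and no change was called.

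ID1, at chr20:31605283-31606515 on the plus strand, was the leading ID gene of untreated cells. Its level was 19.1, 30.7 and 28.8 CPM in untreated WT, 3.62, 10.5 and 9.76 CPM in DTC, and 9.77, 12.9 and 16.5 CPM in DTEC. Both erlotinib groups lay below untreated WT, while DTC and DTEC overlapped, and replicate 1 was the lowest library in each of the 4 groups. ID1 fell by 1.71 in DTC (SE 0.325, adjusted p = 0.000514) and by 1.33 with DTC replicate 1 left out. In DTEC it fell by 1.00 (SE 0.316, adjusted p = 0.0184), but the call was lost when untreated WT replicate 2 (-0.86, adjusted p = 0.0656), untreated WT replicate 3 (-0.91, adjusted p = 0.0598), DTEC replicate 1 (-0.81, adjusted p = 0.0819) or DTEC replicate 2 (-0.98, adjusted p = 0.0567) was left out. The step from DTC to DTEC was 0.71 (SE 0.325, adjusted p = 0.0834) and was called under 4 of 14 alternatives, DESeq2 among them (0.69, adjusted p = 0.0427). It was 0.35 without DTC replicate 1 (adjusted p = 0.209) and 0.46 without DTEC replicate 3 (adjusted p = 0.293).

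ID3, at chr1:23557918-23559794 on the minus strand, moved the other way at 7 days. Its level was 10.5, 14.1 and 12.6 CPM in untreated WT, 39.5, 68.4 and 77.4 CPM in DTC, and 5.66, 6.46 and 8.74 CPM in DTEC. The 3 groups did not overlap, with DTC highest and DTEC lowest. As for ID1, replicate 1 was the lowest library in each of the 4 groups. ID3 rose 4.98-fold in DTC (2.32, SE 0.226, adjusted p = 7.94e-07), and with DTC replicate 1 left out the value was 2.59. From DTC to DTEC it fell by 3.15 (SE 0.236, adjusted p = 1.72e-07), and by 3.40 without DTC replicate 1. It ended below untreated WT, having dropped by 0.83 (SE 0.230, adjusted p = 0.008), and that call held in all 14 alternatives with a highest adjusted p of 0.0472.

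ID2 and ID4 were scarce. ID2, at chr2:8678845-8684453 on the plus strand, had 0, 2 and 2 counts in the untreated WT libraries, 15, 22 and 14 in DTC, and 0, 3 and 0 in DTEC. Only the DTC libraries stood above the floor of 3 counts. The DTC to untreated WT ratio was 12.8, with a 95% counting interval of 4.69 to 48.6 on 51 counts against 4 (edgeR adjusted p = 0.00246), and the DTC to DTEC ratio was 16.6 (5.37 to 83.2, adjusted p = 0.00269). ID4, at chr6:19837386-19840684 on the plus strand, was at 0.299, 0.169 and 0.115 CPM in untreated WT, 0.980, 1.295 and 0.586 CPM in DTC, and 0.213, 0.420 and 0.220 CPM in DTEC. It rose 4.83-fold in DTC (2.27, SE 0.503, adjusted p = 0.00109), on 93 counts against 19, and fell by 1.76 from DTC to DTEC (SE 0.485, adjusted p = 0.00683). The DTEC range overlapped untreated WT (0.51, SE 0.548, adjusted p = 0.452). Both genes share their interval with an antisense gene (ID2-AS1 and AL022068.1). These intervals cover counting error only.

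**Figure D2:**
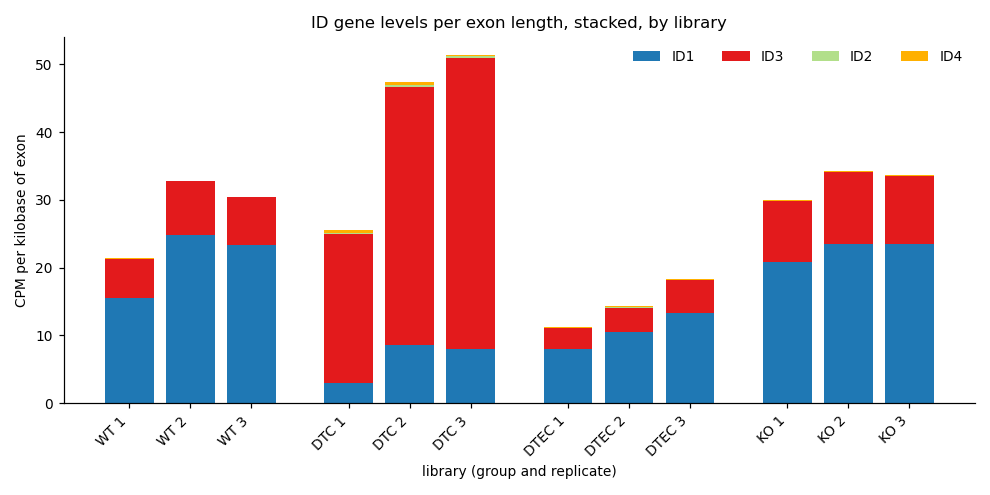
Stacked levels of the 4 ID genes per kilobase of exon in each of the 12 libraries, in CPM per kb. ID1 made up most of each bar in untreated WT, DTEC and KO, and ID3 made up most of each bar in the 3 DTC libraries.

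Set per kilobase of exon, which allows levels of different genes to be compared, the ID transcripts changed their main member at 7 days. ID1 made up 74.9% ± 2.44 (SD, n = 3) of the ID total in untreated WT and 14.96% ± 3.29 in DTC. In DTEC its share was 72.4% ± 1.24, and in KO it was 69.2% ± 0.592. ID3 made up 24.8% ± 2.25, 83.3% ± 2.92, 26.6% ± 1.54 and 30.5% ± 0.676 in untreated WT, DTC, DTEC and KO. The ratio of ID3 to ID1, which no scaling between libraries can alter, was 0.379, 0.316 and 0.300 in untreated WT and 7.50, 4.45 and 5.44 in DTC, and returned to 0.397, 0.343 and 0.364 in DTEC. ID2 and ID4 each took under 2% of the total in every library. The ID total was 28.2 ± 6.02 CPM per kb in untreated WT, 41.5 ± 13.9 in DTC and 14.6 ± 3.59 in DTEC. DTC replicate 1 held 25.6 CPM per kb, within the untreated WT range of 21.4 to 32.8, whereas the other DTC libraries held 47.4 and 51.4. The shares are a description of the levels above and were not tested. The shares and the ratio use the length of all annotated exons together, 1233 bases for ID1 and 1797 for ID3. The longest ID3 transcript has 1251 bases, and that length would give ID3 a larger share in every group.

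In the 28-day cells, 5 of the 10 genes were called against untreated WT, 2 higher (BMP4 and BMPR2) and 3 lower (BMP2, ID1 and ID3). Of all tested genes 52.3% were called, 26% higher and 26.3% lower, so the members' count is near the background. Groups did not overlap for these same 5 genes, a state reached by 62.4% of tested genes. The median log2 fold change was -0.16 for the 10 genes and 0.02 over all tested genes. Between DTEC and DTC, 5 genes were called, 1 higher (SMAD6) and 4 lower (BMP2, ID2, ID3 and ID4). The background was 55.4%, with 28.8% higher and 26.6% lower, and groups did not overlap for those 5 genes and for 56.7% of tested genes. The median was -0.44 for the 10 genes and -0.01 over all tested genes. These comparisons share the untreated WT or the DTC libraries, so their values are set side by side and are not independent.

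**Figure D3:**
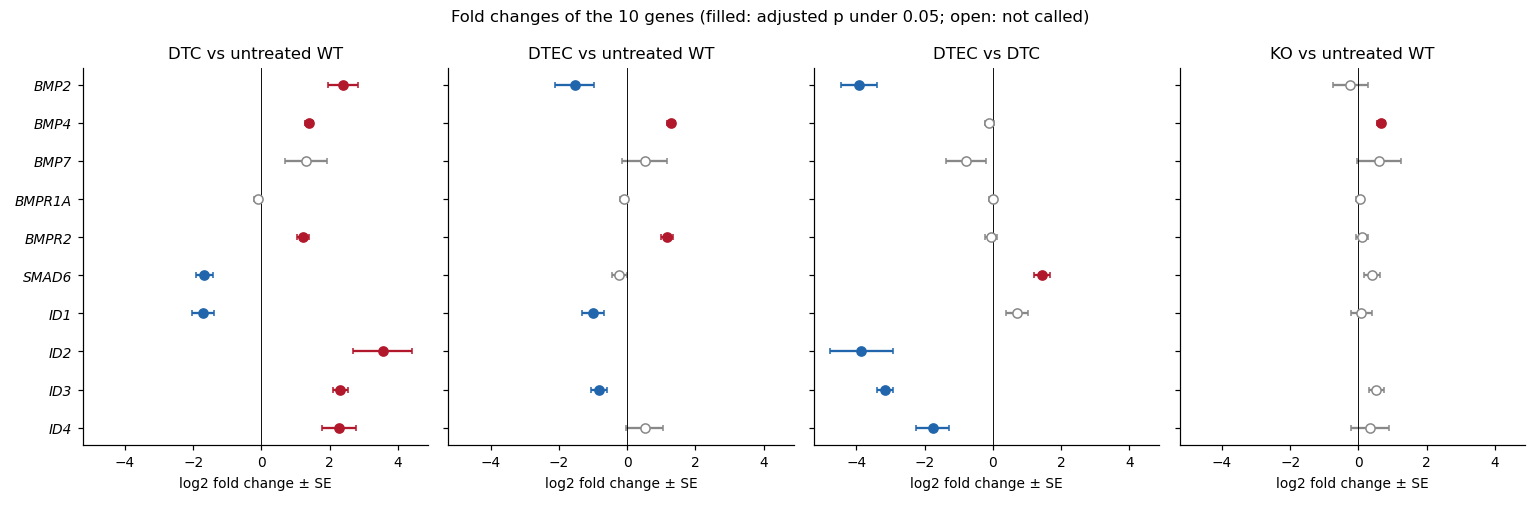
Log2 fold change ± SE of the 10 genes in the 4 comparisons, filled where the adjusted p was under 0.05 and open where it was not; ID2 is left out where both groups were at the counting floor. BMP4 and BMPR2 lie to the right in DTC and in DTEC against untreated WT, while BMP2 and ID3 lie to the right in DTC and to the left in DTEC.

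In untreated KO cells 1 of the 10 genes was called against untreated WT. BMP4 was at 15.3, 17.4 and 17.3 CPM in KO, above all untreated WT libraries and below all erlotinib libraries. It rose 1.58-fold (0.66, SE 0.123, adjusted p = 0.0078), and the call was lost without untreated WT replicate 1 (0.58, adjusted p = 0.0520). Of all tested genes 4.31% were called, 2.76% higher and 1.55% lower. ID3 was at 16.4, 19.1 and 18.0 CPM in KO, also above every untreated WT library, with a difference of 0.53 (SE 0.221, adjusted p = 0.246). It was called when no count filter was used (adjusted p = 0.00673) and when KO and untreated WT alone were fitted (adjusted p = 0.0056). SMAD6, at 8.70, 8.48 and 8.10 CPM, and BMPR2, at 27.8, 28.1 and 27.1 CPM, were likewise above every untreated WT library without a call (adjusted p = 0.395 and 0.831). Groups were apart upward for these 4 genes of 10, and for 15.8% of tested genes. ID1 was at 25.6, 28.9 and 28.9 CPM in KO, inside the untreated WT range (0.09, SE 0.308, adjusted p = 0.924). BMP2, BMP7 and ID4 differed by -0.24, 0.60 and 0.34, each with an SE over 0.5, and ID2 had 0, 1 and 0 counts. The median of the 10 genes was 0.22, beside -0.01 over all tested genes. KO2 is 1 knockout line, so an effect of the deletion and a trait of that line cannot be told apart.

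The rest of the pathway was covered by 54 further genes, of which 32 passed the filter. In DTC 25 of the 32 were called, 8 higher and 17 lower, where 67.3% of all tested genes were called, 34% higher and 33.3% lower. Scaling by total counts gave 10 higher and 9 lower and moved the median of all genes by 0.35, so the balance of directions depends on the scaling. In DTEC against untreated WT 16 were called, 6 higher and 10 lower (52.3% of all tested genes), and 10 higher and 7 lower by total counts. Between DTEC and DTC 24 were called, 15 higher and 9 lower (55.4% of all tested genes), or 11 higher and 10 lower by total counts. In KO 6 were called, each of them higher, beside 4.31% of all tested genes, 2.76% higher and 1.55% lower. Without regard to calls or the filter, KO lay above every untreated WT library for 11 of the 54 genes and below for 14. Of all tested genes 15.8% were apart upward, and the downward share is not given here. DESeq2 gave 7 higher and 1 lower there, and the GC and exon length correction 5 higher and 1 lower. The medians of the 32 genes were -0.33, -0.15, 0.28 and -0.08 in these comparisons.

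**Figure D4:**
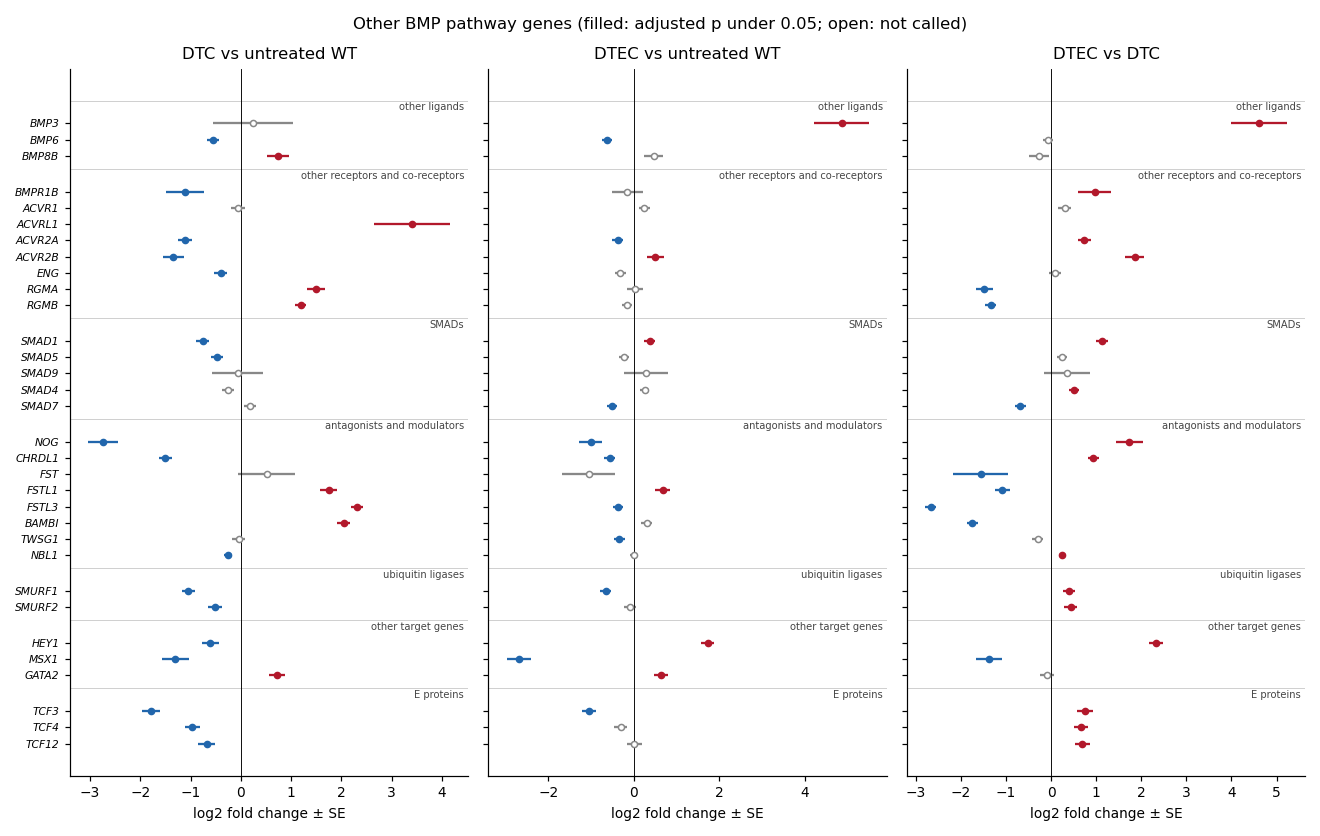
Log2 fold change ± SE of the 32 other pathway genes by role in the 3 comparisons that involve erlotinib, filled where the adjusted p was under 0.05; ACVRL1 is left out where a group had no counts or both were at the floor. The antagonists split in DTC, with NOG and CHRDL1 to the left and FSTL1, FSTL3 and BAMBI to the right.

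Antagonists and modulators, most of them secreted, changed in both directions in DTC, 3 higher and 3 lower of 8 tested, beside 34% and 33.3% of all tested genes. NOG encodes noggin, which binds BMP4 and BMP2 and keeps them from their receptors. It was at 18.3, 25.0 and 22.6 CPM in untreated WT, 1.72, 3.86 and 4.19 CPM in DTC, and 6.85, 11.7 and 14.2 CPM in DTEC. All erlotinib libraries were below untreated WT and DTC was lowest. NOG fell by 2.74 in DTC (SE 0.299, adjusted p = 3.07e-06), or 6.68-fold, and by 1.01 in DTEC (SE 0.274, adjusted p = 0.00752). CHRDL1, a chordin-like BMP antagonist, fell by 1.50 and 0.57 in the same comparisons. FSTL3, a follistatin-like protein that binds activins and some BMPs, was at 28.5, 34.9 and 33.7 CPM in untreated WT, 139.6, 166.1 and 175.2 CPM in DTC, and 27.8, 22.1 and 25.4 CPM in DTEC. It rose 4.95-fold in DTC (2.31, SE 0.123, adjusted p = 1.48e-09) and fell by 2.67 from DTC to DTEC. BAMBI, a decoy receptor without a kinase domain, rose by 2.04 in DTC and fell by 1.75 from DTC to DTEC. Each of these values kept its call in all 14 alternatives. FSTL1 was at 126.4, 112.4 and 113.5 CPM in untreated WT and 471.9, 337.3 and 375.5 CPM in DTC.

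Among the other receptors and co-receptors, 3 were higher and 4 lower of 8 tested in DTC, against the same background of 34% and 33.3%. The type II receptors ACVR2B and ACVR2A fell by 1.34 and 1.12, in contrast to BMPR2. The co-receptor RGMA rose by 1.50 in DTC and fell by 1.48 from DTC to DTEC. RGMB, another co-receptor, was at 16.9, 19.1 and 20.6 CPM in untreated WT and 49.9, 39.2 and 40.4 CPM in DTC. ACVRL1, a type I receptor best known from endothelium, had 56 counts in DTC against 5 in untreated WT, a ratio of 11.2 (95% counting interval 4.53 to 35.9), and 0 in all 3 DTEC libraries, where it was at least 5.96-fold lower than in DTC. ACVRL1 passed the filter on low counts only through the DTC libraries. ACVR2B was higher in DTEC than in DTC by 1.85 (SE 0.208, adjusted p = 5.08e-06).

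The signal-carrying SMADs fell in DTC where they were called. SMAD1 fell by 0.76 (SE 0.136, adjusted p = 0.000189) and SMAD5 by 0.47, while SMAD4, SMAD7 and SMAD9 were not called. SMAD5 lost its call with scaling by total counts (-0.12) and by the upper quartile (-0.19). SMAD1 was higher in DTEC than in DTC by 1.13. SMAD7, the other inhibitory SMAD, showed a difference of 0.18 in DTC (adjusted p = 0.213) and fell by 0.51 in DTEC against untreated WT. The ubiquitin ligases SMURF1 and SMURF2, which mark BMP SMADs for breakdown, fell by 1.05 and 0.52 in DTC. SMURF2 lost its call with scaling by total counts (-0.16) and by the upper quartile (-0.23).

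Of the other ligands, 3 of 10 passed the filter. BMP3, an atypical ligand that can oppose other BMPs, was at 0.239, 0.202 and 0.0577 CPM in untreated WT, 0.169, 0.235 and 0.176 CPM in DTC, and 1.401, 5.62 and 7.53 CPM in DTEC. All DTEC libraries were above the rest, and replicate 1 was the lowest of them. BMP3 rose by 4.85 in DTEC (SE 0.632, adjusted p = 2.62e-05). BMP6 was at 20.2, 22.6 and 20.8 CPM in untreated WT. Its level was 14.6, 13.9 and 14.7 CPM in DTC and 15.8, 13.9 and 11.6 CPM in DTEC. In CPM BMP6 lay above BMP4 in every untreated WT library and below BMP4 in every DTC and DTEC library. BMP6 fell by 0.56 in DTC and by 0.62 in DTEC, and the first call was lost with scaling by total counts. BMP8B rose by 0.73 in DTC and by 1.32 in KO (SE 0.218, adjusted p = 0.00343).

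Other genes known as BMP targets did not follow one pattern. HEY1, a Notch and BMP target, fell by 0.60 in DTC, a call lost with scaling by total counts (-0.25) and by the upper quartile (-0.32). In DTEC HEY1 rose by 1.72 (SE 0.156, adjusted p = 7.38e-07). MSX1, a homeobox target, fell by 1.302 in DTC and by 2.68 in DTEC. GATA2 rose by 0.72 in DTC, 0.64 in DTEC and 0.88 in KO. The E proteins, the partners that ID proteins hold, were all lower in DTC. TCF3 was at 124, 191 and 170 CPM in untreated WT, 36.8, 51.7 and 51.4 CPM in DTC, and 64.9, 78.7 and 91.4 CPM in DTEC. It fell by 1.79 in DTC (SE 0.176, adjusted p = 6.14e-07) and by 1.05 in DTEC, with no overlap among the 3 groups. TCF4 and TCF12 fell by 0.97 and 0.68 in DTC and were not called in DTEC against untreated WT. TCF4 was still below every untreated WT library in DTEC, at 18.5, 21.1 and 20.8 CPM against 27.1, 23.5 and 23.9 CPM, whereas TCF12 overlapped.

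Over the 12 libraries, the 10 genes fell into courses that can be described by the Pearson correlation of their log2 CPM. The points share 4 groups, so these values largely restate group means. BMP2 went with ID3 (r = 0.94) and ID2 (0.87), SMAD6 went with ID1 (0.92), and BMP4 went with BMPR2 (0.84). ID1 and ID3 had r = -0.36, and ID1 and BMPR2 had r = -0.92. Among the tested genes with a mean of at least 10 CPM, the profiles most like each member were COL7A1 and SMYD2 for BMP2 (0.96 each), FBLN1 and SEZ6L2 for BMP4 (0.99 each), IFNAR1 and DCAF5 for BMPR2 (0.99 each), and AGTRAP (0.99) and MAGEF1 (0.98) for SMAD6. For ID1 they were MZT2A (0.995) and MRPS34 (0.99), for ID3 DBNL and TAX1BP3 (0.99 each), for ID2 ZNF431 and RIMKLB (0.95 each), and for ID4 MALAT1 (0.93) and RIMKLB (0.92). BMP7 (TPMT, 0.82) and BMPR1A (MOB1A, 0.83) had no profile as close.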

How the data were processed

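RNA of 12 PC9 libraries was measured by sequencing of polyadenylated RNA. The authors deposited 1 table of expected counts, that is estimated read counts per gene without scaling. The submitters' processing notes name RSEM 1.3.1, Bowtie2 2.5.2, DESeq2 1.40.2 and GRCh38 without saying which made the table, and the annotation release and strand setting are not given in the sources used here. Gene positions, exon lengths and GC contents came from GENCODE 29 by gene identifier (92.8% of identifiers found), on GRCh38. Groups were taken from the sample titles.

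Expected counts were rounded. The tools were edgeR 4.0.16, limma 3.58.1 and R 4.3.3. The filterByExpr function kept 17115 genes. One robust quasi-likelihood fit held all 12 libraries, scaled by TMM, with a mean for each group. Benjamini-Hochberg adjustment covered all 17115 genes, and calls required an adjusted p under 0.05. Genes with 3 counts or fewer in each library of a group were treated as at the floor. Ratios of scarce genes carry exact 95% intervals that cover counting error only, because the reads had no molecular identifiers. Alternatives were 3 other scalings, DESeq2 1.42.0, no count filter, the compared groups alone, a replicate block, each replicate left out, and a correction for GC content and exon length that was chosen after seeing the data. The fit was tested on simulated data.

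The 10 genes and the pathway and marker lists were chosen with earlier results of these data known. All 10 were named in each comparison. Of each pathway role, the genes named were drawn from the up to 2 called genes per direction with the largest change, plus some others. The 2 genes whose log2 CPM had the highest Pearson r with each member were named as well, and for BMP7 and BMPR1A only the closest. Protein sequences were not used here.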

Additional observations from a re-analysis of the deposited data

How the results depend on the processing

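For the 10 genes, 503 of 551 alternative values kept their direction and their side of the threshold, 10 gained a call, 11 lost one and 27 turned sign. All sign changes concerned values that were not called. BMPR1A turned in DTC against untreated WT under total counts (0.26) and upper quartile scaling (0.20), in DTEC against untreated WT under the same scalings (0.083 and 0.028), and in DTEC against DTC under total counts (-0.18), DESeq2 size factors in edgeR (-0.023), upper quartile (-0.17), GC and exon length correction (-0.12), DESeq2 (-0.023) and the compared groups alone (-0.018). BMP4 in DTEC against DTC was 0.017 after the GC and exon length correction. With each replicate left out in turn, BMPR1A ranged from -0.12 to 0.028 in DTC, from -0.14 to 0.019 in DTEC and from -0.096 to 0.078 in DTEC against DTC. The ranges were -0.57 to 0.87 for BMP7 and -3.54 to 0.32 for ID2 in DTEC against untreated WT, -0.23 to 0.22 for BMPR2 in DTEC against DTC, and -0.52 to 0.28 for BMP2, -0.081 to 0.24 for ID1 and -0.043 to 0.81 for ID4 in KO.

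Counts of calls in KO rose from 738 to 1147 with no count filter, 1153 with DESeq2 and 2656 with KO and untreated WT fitted alone, and ran from 321 to 426 with 1 replicate left out. The members called in KO numbered 2 with no count filter and 2 with those groups alone, and 0 to 1 with 1 replicate left out. The other pathway genes called in KO numbered 15 (10 higher, 5 lower) in the fit of those groups alone and 3 to 4 with 1 replicate left out. Members called in DTEC against untreated WT ran from 3 to 5 with 1 replicate left out. Where such a value moved, the cause was not tested. Scaling by total counts moved the median of all genes by 0.35 in DTC, 0.17 in DTEC against untreated WT and -0.19 in DTEC against DTC, and raised calls in the higher direction from 50.5% to 68.4% of all calls in DTC and from 49.7% to 63.7% in DTEC, but took them from 51.9% to 37.4% in DTEC against DTC. In KO that share went from 64.1% to 78.8%. The upper quartile moved these medians by 0.29, 0.11 and -0.17.

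Same-numbered replicates correlated weakly in their deviations (from -0.01 to 0.18, with 11 of 12 pairs above 0), and the own number was the best match in 8 of 12 pairs. Only 3 pairs exceeded 0.1 and the labels name nothing that a number marks, so the main fit did not pair the cultures by number. Replicate 1 was, however, its own best match in every comparison. ID1, ID3, NOG and TCF3 were each lowest in replicate 1 of every group. What the replicate numbers mark was not tested. With the replicate block the calls numbered 11775 in DTC, 9255 in DTEC, 9732 in DTEC against DTC and 887 in KO, and the members called numbered 8, 5, 6 and 1. ID1 in DTEC against DTC was called under the block (0.76, adjusted p = 0.0082). Depth limits BMP2, BMP7, ID2 and ID4, which had at most 68 counts in any library.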

Other observations

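PECAM1, a cell adhesion gene of endothelium and one of the markers used to check the cell type, was chosen here after its values were seen. DTC had the lowest level, 8.77 ± 1.08 CPM (SD, n = 3), followed by untreated WT with 32.0 ± 3.09, KO with 48.4 ± 2.05 and DTEC with 92.1 ± 2.74. The 4 groups did not overlap. This order differs from that of each of the 10 BMP and ID genes, but HEY1, listed above as a BMP target, had it too, also without overlap, at 2.24, 3.41, 5.89 and 11.2 CPM. PECAM1 fell by 1.87 on the log2 scale in DTC (edgeR adjusted p = 4.43e-09) and rose by 1.52 in DTEC (adjusted p = 7.26e-08) and by 0.59 in KO (adjusted p = 0.00519), and each call was kept in all 14 alternatives. The other endothelial markers did not share this course. CDH5 was at 27.7 ± 2.71, 35.0 ± 2.64, 36.7 ± 11.9 and 28.0 ± 1.76 CPM in untreated WT, then DTC, DTEC and KO, and VWF at 0.122, 1.57, 0.405 and 0.1003 CPM. KDR had 0 counts in untreated WT, 18, 7 and 32 in DTC, 0, 2 and 7 in DTEC and 0, 3 and 0 in KO, so that VWF and KDR were highest where PECAM1 was lowest. SFTPB, a surfactant gene of the alveolar epithelium also chosen after its values were seen, followed the order of PECAM1, with 0.0700 ± 0.0664 CPM in DTC, 1.51 ± 0.505 in untreated WT, 6.38 ± 1.04 in KO and 14.1 ± 2.79 in DTEC, also with no overlap between groups. NAPSA and NKX2-1, of the same lung-lineage list, were instead highest in DTC, at 1.62 and 0.366 CPM, beside 0.127 and 0.0312 CPM in untreated WT.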
